A study of Mus musculus with 6 samples.

Results

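Condensin and the SMC5/6 complex are ring-shaped machines that fold and hold DNA, and the 10 genes described here encode subunits of these machines. They are *Smc2* and *Smc4*, whose proteins are shared by both forms of condensin, *Ncapd2*, *Ncapg* and *Ncaph* of condensin I, *Ncapd3*, *Ncapg2* and *Ncaph2* of condensin II, and *Smc5* and *Smc6*. They were picked by gene symbol from the 54532 genes of an RNA-seq table of STRA8+ mouse testis cells. All 10 were among the 15451 genes with enough signal to be tested. The study's title places the series in work on SRSF1, a splicing factor, in male meiosis.

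The series holds 6 libraries, 3 from control cells, whose genotype label reads Cre, and 3 from conditional *Srsf1* knockout (cKO) cells. All 6 were made from total RNA of germ cells isolated from testes as STRA8+. STRA8 is a retinoic acid-induced protein of germ cells that enter differentiation and meiosis. The labels name neither the promoter that drives Cre nor the age or number of the mice, and they do not say that replicates came from separate animals. The p-values given below thus measure only the spread between these libraries. In bulk RNA, fewer cells of a type and less RNA per cell cannot be told apart.

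In each complex, a pair of SMC ATPases forms the long arms of the ring and a kleisin subunit closes it. HEAT-repeat subunits of condensin bind DNA, and small NSE subunits take their place in SMC5/6. Condensin I reaches chromosomes mainly after the nuclear envelope breaks down, whereas condensin II is nuclear throughout the cell cycle. Both compact chromosomes for division in mitosis and meiosis. The SMC5/6 complex works in recombinational DNA repair and in the resolution of joined DNA molecules, and it is present on meiotic chromosomes.

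Expression is given as the deposited FPKM, a fragment count divided by the gene's length in kilobases and by library size. Values of single libraries are given in the order of replicates 1, 2 and 3. The knockout was checked first. The control libraries held 84.7, 45.2 and 51.9 FPKM of *Srsf1*, against 4.94 to 5.17 FPKM in cKO libraries (log2 fold change -3.29, adjusted p = 5.6e-05). From 15364511 to 17310353 fragments were counted in control libraries and from 14447887 to 15326722 in cKO libraries. *Stra8* stood at 222 to 262 FPKM in control and 242 to 313 FPKM in cKO libraries. The germ cell genes *Ddx4* (129 to 169 FPKM) and *Dazl* (362 to 584 FPKM), the receptor gene *Kit* (36.3 to 42.0 FPKM) and the meiotic axis gene *Sycp3* (191 to 267 FPKM) were present in all 6 libraries. Of these, *Dazl* was called higher and *Ddx4* lower. Markers of later germ cells separated the groups. The summed FPKM of 8 spermatid genes was 2455 to 8264 in control and 6.34 to 8.58 in cKO libraries, and that of 8 pachytene genes was 1009 to 1204 and 212 to 239. Control replicate 2 stood apart, with a spermatid sum of 8264 FPKM against 2497 and 2455 FPKM in control replicates 1 and 3. In all, 8 spermatid and 7 pachytene genes were called lower, and *Pgk2* was listed at 0 in cKO replicates 1 and 2. Markers of undifferentiated spermatogonia summed to 21.8 to 27.5 FPKM in control and 23.0 to 27.9 FPKM in cKO libraries, with *Id4* called lower (5.24 to 1.55 FPKM) and *Ret* called higher (1.19 to 2.26 FPKM) among the 6. Those of Sertoli cells summed to 74.2 to 109.9 and 60.1 to 149 FPKM, and 1 of the 6, *Rhox5*, was called higher. Markers of Leydig cells, peritubular cells, and macrophages and blood each summed to at most 14.0 FPKM in any library. The part of these cells in the results below was not tested.

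Among the condensin and SMC5/6 genes, *Smc2* rose and *Ncapg* fell in cKO cells, and the other 8 genes did not pass the test. The *Smc2* call was kept in all 15 alternative analyses, whereas that of *Ncapg* was lost in 8 of them. A gene was called where limma's two-sided test on log2(FPKM + 1), adjusted over all genes tested by the Benjamini-Hochberg method, gave at most 0.05. Of the 10 subunit genes, 1 was thus called higher, against 11.8% of all genes tested. A further 1 was called lower, against 22.2% of all genes tested. Over all genes, 34.6% of calls were higher. Quantile normalization, under which the median gene shifted by 0.22 on the log2 scale, took this share to 67.1%. At an unadjusted p under 0.05, 18.3% of all genes tested were higher and 26.5% lower. Limma-voom called 16.2% higher and 21.5% lower. Groups did not overlap for 4 of the 10 genes, *Smc2* and *Ncapg2* with all cKO libraries above all control libraries, and *Ncapg* and *Ncaph2* with all of them below. Among all genes tested, 50.4% had groups that did not overlap in either direction. The share for the subunit genes was thus near or below the background. The median log2 fold change of the 10 genes was 0.08, and that of all genes tested was -0.0082. The 95% intervals of the 8 genes not called lay between -0.49 (*Smc4*) and 0.94 (*Ncapg2*) on the log2 scale, and each gene's own interval is given below.

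**Figure D1:**
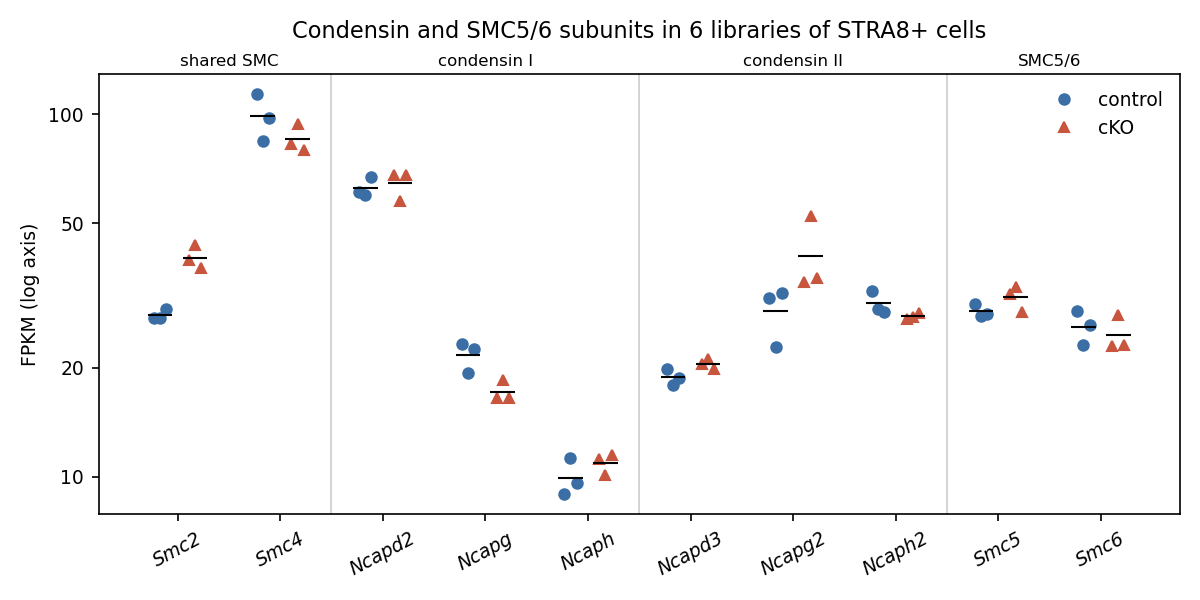
FPKM (log axis) of the 10 subunit genes in each of the 3 control libraries (circles) and 3 cKO libraries (triangles), with black lines at the group means. The groups are apart for *Smc2* and *Ncapg2* (cKO above control) and for *Ncapg* and *Ncaph2* (cKO below control), and they overlap for the other genes.

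Within the SMC pair of condensin, *Smc2* rose in cKO cells, and its partner gene *Smc4* did not pass the test. *Smc2* (ENSMUSG00000028312) was annotated on the plus strand in GRCm38, on chromosome 4 between 52439243 and 52488260. Positions below are on the same build. *Smc2* had 27.4, 27.3 and 29.0 FPKM in control replicates and 39.5, 43.5 and 37.7 FPKM in cKO replicates. Every cKO library lay above every control library, and the means rose from 27.9 ± 0.963 to 40.2 ± 2.93 FPKM (SD, n = 3 each), 1.44-fold. The log2 fold change was 0.51 (SE 0.08, 95% interval 0.33 to 0.69, adjusted p = 0.0023). The *Smc2* call was kept in all 15 alternative analyses, with log2 fold changes from 0.45 to 0.61.

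*Smc4* (ENSMUSG00000034349; chromosome 3, 69004738 to 69034623, plus strand) encodes the ATPase that pairs with SMC2 in both condensins. It had the highest FPKM of the 10 genes in control libraries. Its values were 114, 84.5 and 97.3 FPKM in control replicates and 82.7, 94.2 and 79.4 FPKM in cKO replicates. The groups overlapped, with control replicate 2 within the range of the cKO libraries. The log2 fold change was -0.20 (95% interval -0.49 to 0.09, adjusted p = 0.26), so that a fall or a small rise of *Smc4* is within the error.

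The ratio of *Smc4* to *Smc2* within a library does not depend on a scale factor that all genes of the library share. It was 4.16, 3.09 and 3.35 in control replicates and 2.10, 2.17 and 2.10 in cKO replicates. The cKO libraries thus sat close together below all controls, at 2.12 ± 0.0389 against 3.53 ± 0.555 (SD, n = 3). A two-sided exact permutation test gave p = 0.1, the smallest that 3 libraries against 3 allow, and 0.175 after adjustment over the 7 ratios computed. The ratios were chosen with earlier results of these data known, which their p-values do not take into account. The summed FPKM of both genes overlapped, at 112 to 141 in control and 117 to 138 in cKO libraries.

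**Figure D2:**
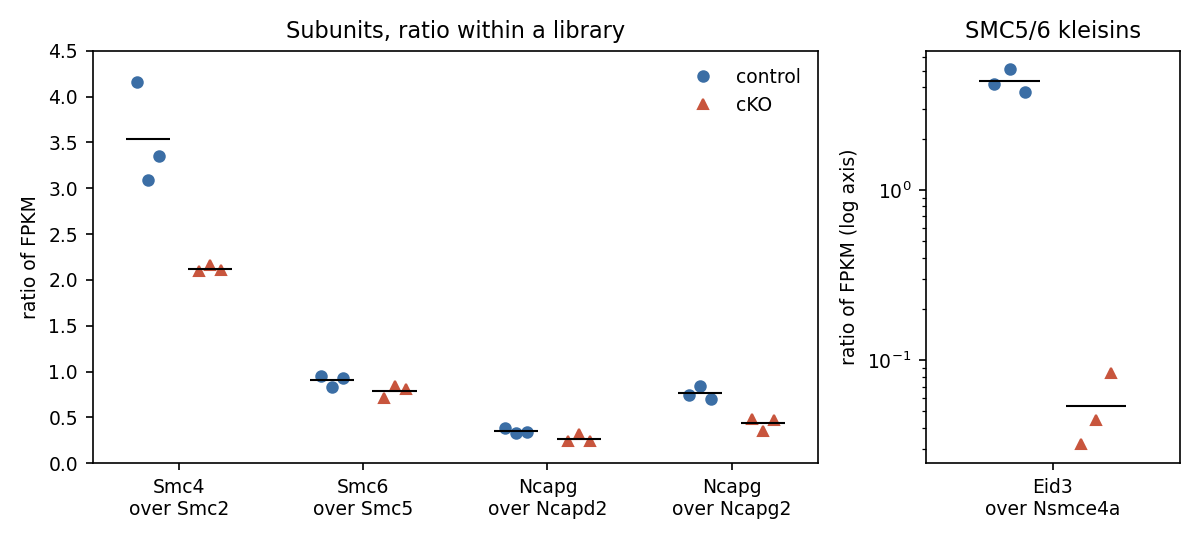
Ratios of FPKM between subunit genes within each control (circles) and cKO (triangles) library, with lines at the group means; the right panel, on a log axis, shows the SMC5/6 kleisin genes. The ratio of *Smc4* to *Smc2* is 3.09 to 4.16 in control and 2.10 to 2.17 in cKO libraries, and only *Smc6* over *Smc5* overlaps between groups among the ratios drawn.

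The upstream sequences of *Smc2* and *Ncapg* are shown because these are the genes called in opposite directions, and both hold the same pair of motifs. Promoters of cell cycle genes often carry CCAAT boxes and the cell cycle genes homology region (CHR). RefSeq windows of 250 bases before the start (GRCm38.p6) were at hand for 9 of the 10 genes, *Smc4* being the exception. They were searched on both strands for CCAAT and for the CHR letters TTTGAA. Only these exact letters were counted, so other forms of either motif would be missed. The windows are chr4:52438971-52439220 for *Smc2* and chr5:45669675-45669924 for *Ncapg*, both on the plus strand and printed 5′ to 3′. Capitals mark a match to either motif or to its reverse complement.
Smc2: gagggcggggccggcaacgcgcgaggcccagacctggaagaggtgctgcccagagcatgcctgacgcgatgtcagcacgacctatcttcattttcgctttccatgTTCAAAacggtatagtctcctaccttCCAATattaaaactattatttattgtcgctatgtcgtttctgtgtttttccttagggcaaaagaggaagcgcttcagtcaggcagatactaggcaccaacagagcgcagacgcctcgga
Ncapg: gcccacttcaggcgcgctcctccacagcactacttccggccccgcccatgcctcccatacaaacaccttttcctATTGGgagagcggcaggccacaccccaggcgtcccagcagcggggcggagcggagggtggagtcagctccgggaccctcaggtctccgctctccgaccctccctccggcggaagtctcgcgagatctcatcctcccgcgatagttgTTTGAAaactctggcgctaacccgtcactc
In *Smc2*, the CHR letters lay on the minus strand at 145 bases and the CCAAT box on the plus strand at 119 bases before the start. In *Ncapg*, the CCAAT box lay on the minus strand at 176 bases and the CHR letters on the plus strand at 30 bases before the start. Matches to CCAAT occurred in 3 of the 9 genes and in 33.85% of 32851 RefSeq promoters of the same length, and TTTGAA occurred in 6 of the 9 and in 15.99%. *Ncapd3* has 2 windows, 10 in all for the 9 genes, and held TTTGAA only in the window of a start within the gene. The *Smc5* window also lies within the gene as GENCODE M21 annotates it, so it is not the sequence before that start. The windows of *Ncapd2*, *Ncapg* and *Ncapg2* reach in part into their annotated genes. The TTTGAA match of *Ncapg2*, at 18 bases before the RefSeq start, lies in that part. Both motifs together were found in 3 of the 9 genes, *Smc2*, *Ncapg* and *Ncapd2*, and in 5.549% of all promoters. These 3 genes were called higher, called lower and not called. The E2F letters TTTGGCGC or TTTCCCGC were found in *Ncapd2* and *Ncapg2* and in 1.3% of all promoters. That of *Ncapd2* also lies within the annotated gene. No match overlapped another in the sequences printed. A match is a string of letters and not a measured binding site.

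Condensin I is formed by SMC2, SMC4 and 3 subunits of its own, and *Ncapg* was the only gene of these 3 to pass the threshold. It encodes the HEAT-repeat subunit CAP-G (ENSMUSG00000015880; chromosome 5, 45669919 to 45700546, plus strand). *Ncapg* had 23.3, 19.4 and 22.6 FPKM in control replicates and 16.5, 18.5 and 16.5 FPKM in cKO replicates. All cKO libraries lay below all control libraries, although control replicate 2 and cKO replicate 2 were close. The means were 21.7 ± 2.09 and 17.2 ± 1.15 FPKM (SD, n = 3), 21.1% lower in cKO cells, with a log2 fold change of -0.32 (SE 0.09, 95% interval -0.55 to -0.10, adjusted p = 0.037). The direction was the same in all 15 alternative analyses, but the call was lost in 8 of them. These include leaving out control replicate 1, control replicate 3, cKO replicate 1 or cKO replicate 3, with limma adjusted p from 0.105 to 0.122.

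Annotation bears on the *Ncapg* value, since 13.36% of its exonic bases (944 bases) are shared with *Lcorl* on the opposite strand. Whether fragments were counted by strand is not given in the sources used here, so reads of the shared part could belong to either gene. *Lcorl* was not called, with 4.65 to 5.60 FPKM in control and 5.44 to 6.73 FPKM in cKO libraries (log2 fold change 0.17, adjusted p = 0.28).

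*Ncapd2*, the other HEAT-repeat subunit gene of condensin I (ENSMUSG00000038252; chromosome 6, 125168007 to 125191701, minus strand), was the second most abundant of the 10. It had 61.1, 59.7 and 67.1 FPKM in control replicates and 68.1, 57.6 and 68.1 FPKM in cKO replicates. The groups overlapped fully, with both the lowest and the highest value in cKO libraries (log2 fold change 0.04, 95% interval -0.17 to 0.26, adjusted p = 0.75). The kleisin gene *Ncaph* (ENSMUSG00000034906; chromosome 2, 127103809 to 127133954, minus strand) had the lowest FPKM of the 10 genes. Its values were 8.95, 11.2 and 9.61 FPKM in control replicates and 11.2, 10.1 and 11.5 FPKM in cKO replicates. The groups again overlapped, and the log2 fold change was 0.13 (95% interval -0.12 to 0.38, adjusted p = 0.37).

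*Ncapg* was lower relative to *Ncapd2* in each cKO library than in any control library. The ratio was 0.381, 0.324 and 0.336 in control replicates and 0.243, 0.321 and 0.242 in cKO replicates, so that control replicate 2 and cKO replicate 2 nearly met (exact permutation p = 0.1, the smallest possible, adjusted 0.175). The summed FPKM of the 3 condensin I genes ran from 90.3 to 99.3 in control and from 86.2 to 96.1 in cKO libraries and overlapped.

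None of the 3 genes particular to condensin II was called by limma, although *Ncapg2* came near. At an unadjusted p under 0.05, 1 of the 3 was higher, and limma-voom called the same gene, beside 18.3% and 16.2% of all genes. *Ncapg2* encodes the HEAT-repeat subunit CAP-G2 (ENSMUSG00000042029; chromosome 12, 116405402 to 116463731, plus strand). It had 31.2, 22.9 and 32.1 FPKM in control replicates and 34.4, 52.5 and 35.3 FPKM in cKO replicates. The groups did not overlap, but control replicate 2 lay well below and cKO replicate 2 well above the rest of their groups. The means were 28.7 ± 5.08 and 40.7 ± 10.2 FPKM (SD, n = 3), and the log2 fold change of 0.48 had a wide 95% interval of 0.01 to 0.94 (unadjusted p = 0.045, adjusted p = 0.10). Without cKO replicate 2 the log2 fold change was 0.29 (limma adjusted p = 0.222), and without control replicate 2 it was 0.33 (0.235). *Ncapg2* was past the threshold in 2 of 15 alternative analyses. These were limma-voom on recovered fragments (0.54, adjusted p = 0.040) and quantile normalization (0.58, adjusted p = 0.043).

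The kleisin gene *Ncaph2* (ENSMUSG00000008690; chromosome 15, 89355719 to 89372826, plus strand) had 32.6, 29.1 and 28.5 FPKM in control replicates and 27.3, 27.7 and 28.3 FPKM in cKO replicates. The cKO libraries lay just below all controls, by less than the spread among the controls. The log2 fold change was -0.11 (95% interval -0.28 to 0.06, adjusted p = 0.29). Of its exonic bases, 19.75% are shared with *Sco2* and *Tymp* on the opposite strand. *Tymp*, the thymidine phosphorylase gene, fell from 4.81 to 0.894 FPKM (log2 fold change -1.61, adjusted p = 9.4e-05), and *Sco2* was listed at 0 in all 6 libraries. The part of these overlapping genes in the *Ncaph2* value was not tested.

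*Ncapd3*, the other HEAT-repeat subunit gene of condensin II (ENSMUSG00000035024; chromosome 9, 27030175 to 27095315, plus strand), had the smallest standard error of the 10 (0.07). It had 19.9, 18.0 and 18.7 FPKM in control replicates and 20.5, 21.1 and 19.8 FPKM in cKO replicates. The highest control and the lowest cKO library were almost level (log2 fold change 0.12, 95% interval -0.05 to 0.28, adjusted p = 0.25). Between the paralogues of the condensins, the ratio of *Ncapg* to *Ncapg2* was 0.703 to 0.846 in control and 0.352 to 0.481 in cKO libraries. As the groups were apart in opposite directions for both genes, they had to be apart in this ratio, which has means of 0.766 ± 0.0735 and 0.433 ± 0.0706 (SD, n = 3). Within condensin II, the ratio of *Ncapg2* to *Ncapd3* overlapped between groups, at 1.27 to 1.72 in control and 1.68 to 2.49 in cKO libraries (exact permutation p = 0.2). The summed condensin I genes over the summed condensin II genes overlapped, at 1.12 to 1.29 and 0.851 to 1.17 (exact permutation p = 0.3).

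**Figure D3:**
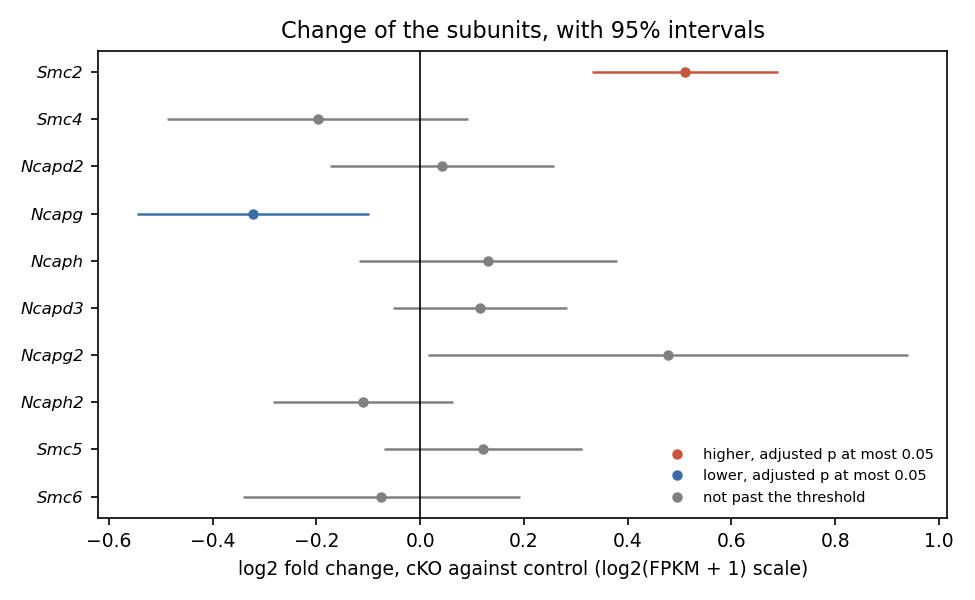
Log2 fold change of each subunit gene, cKO against control on the log2(FPKM + 1) scale, as points with 95% intervals from limma; colours mark genes past an adjusted p of 0.05. *Smc2* (0.51) lies to the right of 0 and *Ncapg* (-0.32) to the left, and the interval of *Ncapg2* just clears 0 without passing the adjusted threshold.

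The ATPase genes of the SMC5/6 complex were not called, whereas its alternative kleisin gene was nearly lost from the cKO libraries. *Smc5* (ENSMUSG00000024943; chromosome 19, 23206451 to 23273897, minus strand) had 30.0, 27.7 and 28.2 FPKM in control replicates and 32.0, 33.3 and 28.5 FPKM in cKO replicates. The groups overlapped through cKO replicate 3 (log2 fold change 0.12, 95% interval -0.07 to 0.31, adjusted p = 0.29). *Smc6* (ENSMUSG00000020608; chromosome 12, 11265886 to 11319785, plus strand) had 28.6, 23.1 and 26.3 FPKM in control replicates and 22.9, 27.9 and 23.1 FPKM in cKO replicates. Both groups covered nearly the same range (log2 fold change -0.07, 95% interval -0.34 to 0.19, adjusted p = 0.64), and the sign turned under quantile normalization. The ratio of *Smc6* to *Smc5* was 0.833 to 0.953 in control and 0.715 to 0.839 in cKO libraries and overlapped (exact permutation p = 0.2).

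Of 7 genes for other subunits and recruitment factors of SMC5/6, 2 were called lower and 0 higher by limma, beside 22.2% and 11.8% of all genes tested, so that the lower share was near the background. The list had a median log2 fold change of -0.19. At an unadjusted p under 0.05, 1 was higher, as was 1 by limma-voom, beside 18.3% and 16.2% of all genes. *Eid3* encodes a kleisin that can stand in for NSMCE4A and is expressed mainly in testis. It is a single-exon gene (ENSMUSG00000109864; chromosome 10, 82866626 to 82867930, plus strand) that lies within *Txnrd1* on the same strand and shares no exonic base with it. *Eid3* had 51.5, 56.5 and 44.3 FPKM in control replicates and 0.390, 0.576 and 1.06 FPKM in cKO replicates. This is 1000 to 1131 fragments per control library against 8 to 21 per cKO library. The mean fell by 98.7%, with a log2 fold change of -4.96 (SE 0.17, 95% interval -5.36 to -4.57, adjusted p = 3.7e-06), and the call was kept in all 15 alternatives. The fold change is understated on the log2(FPKM + 1) scale, since the cKO values lie near or below 1 FPKM. It was -6.25 by limma-voom and -6.12 at a pseudocount of 0.1, and -5.12 to -4.66 in the other alternatives. The pachytene and spermatid sums given above fell between the same groups, and their part in this result was not tested.

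*Nsmce4a*, the gene of the ubiquitous kleisin, had 11.1 to 12.3 FPKM in control and 12.2 to 12.9 FPKM in cKO libraries and was not called (log2 fold change 0.09, 95% interval -0.09 to 0.27, adjusted p = 0.38). *Eid3* thus stood at 4.36 ± 0.675 times the FPKM of *Nsmce4a* in control and 0.0538 ± 0.0275 times in cKO libraries (SD, n = 3). The size of this ratio rests on the deposited length of *Nsmce4a*, which is 5044 bases against 1435 in its longest coding transcript, and the contrast between groups does not. *Nsmce1*, which encodes the RING-finger subunit, had 30.7, 37.4 and 27.1 FPKM in control replicates and 21.5, 22.6 and 22.3 FPKM in cKO replicates. Every cKO library lay below every control library (log2 fold change -0.49, SE 0.12, adjusted p = 0.018), but the call was lost without cKO replicate 1 (adjusted p = 0.059) or cKO replicate 3 (adjusted p = 0.057). The other 4 genes were not called. These were the SUMO ligase gene *Nsmce2* (-0.10), the MAGE subunit gene *Nsmce3* (-0.24) and the recruitment factor genes *Slf1* (-0.19) and *Slf2* (0.22), each value a log2 fold change.

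Genes that act with condensin on chromosomes included 4 that rose. Of 14 such genes, 4 were called higher and 0 lower by limma, against the backgrounds of 11.8% and 22.2%, with a median log2 fold change of 0.32. At an unadjusted p under 0.05, 9 were higher and 0 lower, beside 18.3% and 26.5% of all genes, and limma-voom called 9 higher and 0 lower, beside 16.2% and 21.5%. The count of higher genes was also 9 with quantile normalization (33.4% of all genes), 7 with recomputed FPKM (14.8%) and 7 at a mean of at least 5 FPKM (14.4%). *Akap8*, whose product anchors condensin I to chromatin, rose from 78.8 ± 1.88 to 97.9 ± 5.90 FPKM (SD, n = 3, log2 fold change 0.31, adjusted p = 0.013), a call lost with the replicate number as a block (adjusted p = 0.0646). *Kif4*, the gene of a chromokinesin that binds condensin I, rose from 12.1 to 16.1 FPKM (0.39, adjusted p = 0.012) and shares 15.1% of its exonic bases with *Pdzd11* on the opposite strand. *Ccnb1*, the cyclin partner of CDK1, rose from 27.3 ± 4.81 to 40.5 ± 3.10 FPKM (0.56, adjusted p = 0.015). Its call was lost without control replicate 1, control replicate 3 or cKO replicate 1, with limma adjusted p from 0.052 to 0.053.

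*Csnk2a1*, a subunit gene of casein kinase 2, which phosphorylates condensin I, had the largest change of the 14 genes, from 8.75 ± 1.85 to 13.9 ± 0.248 FPKM (log2 fold change 0.63, adjusted p = 0.016). Only 71.6% of its 100-base windows occur in no other annotated gene, as against 97.15% to 100% for the 10 subunit genes, so its value is uncertain. The share was 85.06% for *Ccnb1*, whose value carries the same limit. The *Csnk2a1* call was lost without cKO replicate 3 (adjusted p = 0.057). Without control replicate 2 its log2 fold change was 0.46, below the 0.70 of *Ccnb1*, so its rank rests on that library. *Top2a*, which encodes the topoisomerase that works beside condensin, had 97.7 to 123 FPKM in control and 132 to 177 FPKM in cKO libraries without passing the threshold (0.42, adjusted p = 0.054). The condensin II inhibitor gene *Mcph1* was not called (-0.17, adjusted p = 0.26).

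The other SMC genes showed no call by limma. Of 4 genes tested, 0 were higher and 0 lower, beside 11.8% and 22.2% of all genes, so that no call among 4 is near the background. At an unadjusted p under 0.05, 1 was higher and 0 were lower, beside 18.3% and 26.5%, and limma-voom called 1 higher, beside 16.2%. Groups were apart for 3 of the 4, *Smc3*, *Smc1a* and *Smchd1*, each with cKO above control, beside 50.4% of all genes apart in either direction. *Smc3*, the ATPase gene of cohesin, the ring that holds sister chromatids together, had 68.7 to 83.0 FPKM in control and 90.5 to 119 FPKM in cKO libraries (log2 fold change 0.36, adjusted p = 0.071). Its meiotic partner gene *Smc1b* had 116 to 188 FPKM in control and 101 to 149 FPKM in cKO libraries (-0.27, adjusted p = 0.37), and the groups overlapped.

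Condensin genes belong to a wider set of genes active in dividing cells, and 7 of 12 S phase and G2/M genes were called higher and 0 lower by limma, beside 11.8% and 22.2% of all genes tested. At an unadjusted p under 0.05, 7 were higher and 0 lower, beside 18.3% and 26.5%, and limma-voom called 7 higher and 0 lower, beside 16.2% and 21.5%. Their median log2 fold change was 0.35. The largest change was in *Cenpf*, a kinetochore protein gene, from 47.7 ± 6.51 to 78.1 ± 7.91 FPKM (SD, n = 3, log2 fold change 0.70, adjusted p = 0.0047). *Mcm5*, a subunit gene of the replicative helicase, had 0.51 (adjusted p = 0.0038). *Tpx2*, *Mcm2*, *Ccna2*, *Cenpe* and *Tyms* were the others called. Of the exonic bases of *Ccna2*, 12.49% are shared with *Exosc9* on the opposite strand. Without single libraries, 5 to 7 of the 12 were called higher, beside 965 to 1752 of the 15168 to 15541 genes tested. With the replicate number as a block, 4 of the 12 were called higher (5.77% of all genes). The *Tyms* call was lost in 7 of the 14 alternatives that tested it, with limma adjusted p up to 0.138. These include each fit without a single library other than control replicate 2. The *Mcm2* call was lost without cKO replicate 3 (adjusted p = 0.052) and that of *Cenpe* without control replicate 1 (adjusted p = 0.0545), and both with the block. The part of cell cycle composition in the *Smc2* value was not tested.

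**Figure D4:**
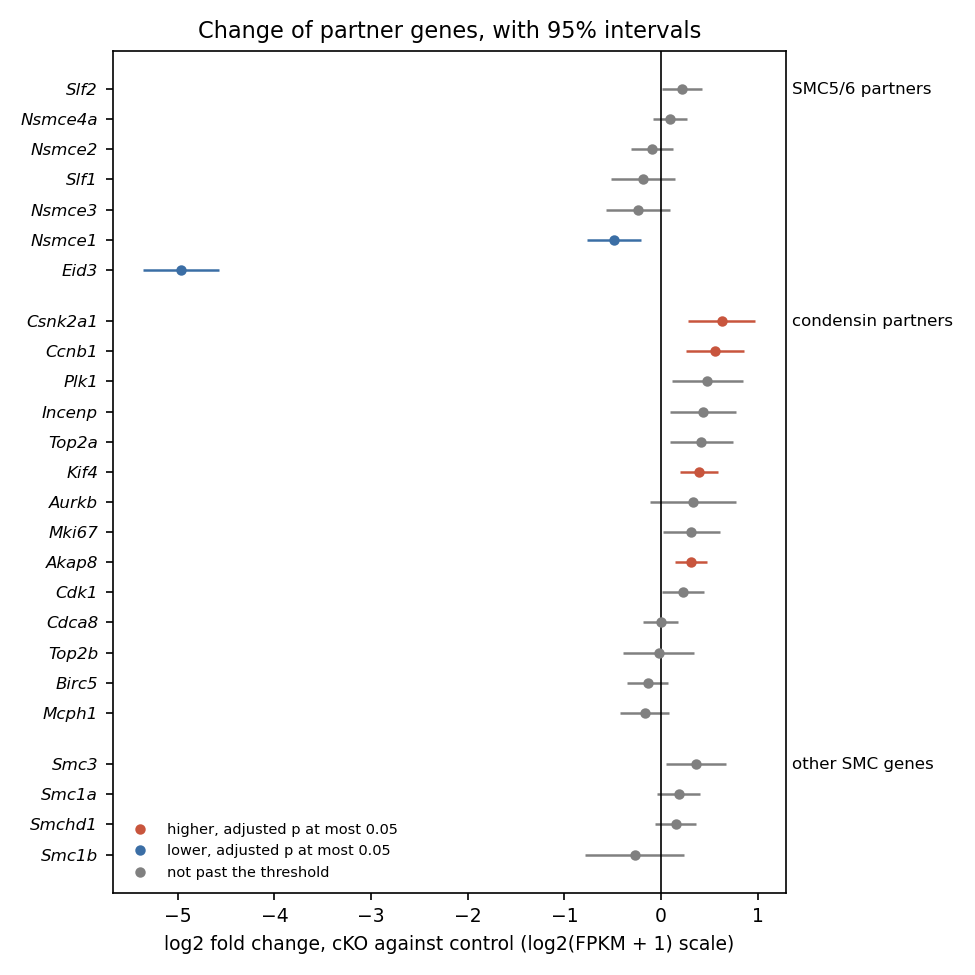
Log2 fold change, cKO against control on the log2(FPKM + 1) scale, of SMC5/6 partner genes, condensin partner genes and other SMC genes, as points with 95% intervals from limma; colours mark genes past an adjusted p of 0.05. *Eid3* (-4.96) lies far to the left of all others, and the 4 condensin partners called lie to the right of 0.

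Per gene length, the subunit genes differed widely in level, and the order was led by *Smc4*. In control libraries the mean FPKM was 98.5 for *Smc4* and 62.6 for *Ncapd2*, and their ranges did not overlap. *Ncaph2*, *Ncapg2*, *Smc5*, *Smc2* and *Smc6* followed between 30.1 and 26.0 FPKM, and neighbours in this order did not differ beyond their spread. *Ncapg* (21.7), *Ncapd3* (18.8) and *Ncaph* (9.93) came last, and only the last of them was apart from its neighbour. In cKO libraries, *Ncapg2* (40.7) and *Smc2* (40.2) came next after *Smc4* and *Ncapd2*. All 10 genes lay above the median gene tested, from percentile 61.5 (*Ncaph*) to 97.6 (*Smc4*) of mean FPKM. The deposited length counts every annotated exonic base, which is 12502 for *Smc6* against 5603 in its longest coding transcript. With each gene's longest coding transcript as the length, the control level of *Smc6* would be 58.0 and that of *Ncapg2* 60.9, and *Ncapg* would be at 41.5, all above *Ncaph2* (38.2), *Smc5* (34.2) and *Smc2* (28.3). The order among genes below *Smc4* and *Ncapd2* thus depends on the length used. Ratios between groups for 1 gene do not depend on this length.

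Within the groups, the same libraries tended to be at the edges. Control replicate 2 had the lowest FPKM of its group for 8 of the 10 genes, and cKO replicate 2 the highest of its group for 7 of the 10. The exceptions were *Ncaph* and *Ncaph2* in both groups and *Ncapd2* in cKO libraries. As the 10 genes of a library share its scaling, these counts describe the libraries and are not a test. Without control replicate 2, the library with the highest spermatid sum, the log2 fold change was 0.50 for *Smc2* (limma adjusted p = 0.0078), -0.40 for *Ncapg* (0.0155) and -4.88 for *Eid3* (1.7e-05), and all 3 stayed called.

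The genes whose pattern was most like that of *Smc2* were *Stag2* and *Ythdf1* (Pearson r = 0.998 each for log2(FPKM + 1) over the 6 libraries), followed by *Itgb1*, *mt-Nd6* and *Chrna7* (0.996 each). *Stag2*, a cohesin subunit gene, went from 10.6 to 14.2 FPKM (log2 fold change 0.39, adjusted p = 0.0078), and *Ythdf1*, an m6A reader gene, was not called (0.17, adjusted p = 0.056). Of 12160 genes compared, 507 reached an r of 0.95.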

How the data were processed

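RNA-seq of STRA8+ cells was deposited by the authors as 1 table of FPKM, with a column per library and the gene length used. Per the submitters' processing notes, HISAT2 2.0.5 and mm10 were used. The counting tool, annotation and strand setting are not given in the sources used here. Gene positions and lengths of the 10 genes equal those of GENCODE M21. FPKM multiplied by length fell on whole multiples of 1 step per library (tolerance 0.05), so fragments could be recovered.

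Libraries were grouped by genotype label. Log2(FPKM + 1) was compared between cKO and control by lmFit and eBayes with trend (limma 3.58.1, R 4.3.3) over 15451 genes whose mean reached 1 FPKM, with Benjamini-Hochberg adjustment over all genes and a threshold of 0.05. Fold changes on this scale understate those of low genes. Ratios were tested with exact permutation. The fit was tested on simulated data.

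Named were the 10 subunit genes, *Srsf1*, label markers, called genes and the 2 largest changes of each partner list, and the 5 genes most like *Smc2*. A gene of the condensin partner list is not reported here and was left out of its counts. Partner genes not called, overlapping genes and called markers of other cells were named after their values were seen. The members, lists and ratios were chosen with earlier results of these data known. Alternatives were a pseudocount of 0.1, no filter or at least 5 FPKM, median-of-ratios scaling, quantile normalization, FPKM recomputed from fragments, eBayes without trend, the replicate number as a block, limma-voom on fragments and leaving out each library. Depth limited the 10 genes to between 635 and 9766 fragments per library.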

Additional observations from a re-analysis of the deposited data

How the results depend on the processing

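*Smc2*, *Eid3* and *Srsf1* kept their direction and call in all 15 alternatives. The number of subunit genes called higher (1) went to 5 with quantile normalization and 2 with limma-voom, where 33.4% and 16.2% of all genes were called higher. The number called lower (1) went to 0 with no filter, with quantile normalization, with eBayes without trend and with the replicate block. It was 0 to 1 when single libraries were left out. Over all genes, 4361 of 35994 were lower with no filter, against 3437 of 15451 in the main fit. Quantile normalization called 2527 lower, eBayes without trend 3347 and the replicate block 2870, each of 15451. Leaving out single libraries gave 2763 to 3202 lower. *Smc6* turned from -0.07 to 0.037 (log2) with quantile normalization (adjusted p = 0.79). SMC5/6 partners called higher (0) numbered 2 with quantile normalization, 1 with recomputed FPKM and 1 with limma-voom, and those called lower (2) were 1 to 2 without single libraries. Condensin partners called higher (4) numbered 7 at a mean of at least 5 FPKM, 9 with quantile normalization, 7 with recomputed FPKM and 9 with limma-voom. They numbered 3 with the replicate block and 3 to 6 without single libraries. Fits without single libraries called 965 to 1752 genes higher, of 15168 to 15541 tested. Other SMC genes called higher (0) numbered 3 with quantile normalization, 1 with recomputed FPKM and 1 with limma-voom. Of all genes, 14.8% were higher with recomputed FPKM, 14.4% at a mean of at least 5 FPKM and 5.77% with the replicate block. The cause was not tested.

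Over all genes, 1821 were higher and 3437 lower. Quantile normalization gave 5164 higher and 2527 lower, and leaving out single libraries gave 965 to 1752 higher. The replicate block gave 891 higher and 2870 lower and took the S phase and G2/M genes called higher from 7 to 4. Same-numbered libraries did not deviate together (r = -0.0014, -0.11 and 0.016), so the numbers were not taken as pairs.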
